A study of Mus musculus with 12 samples.

Results

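The genes described here drive the cell division cycle and DNA replication. They were chosen by name, as 43 symbols matched to Ensembl identifiers with the GENCODE M21 annotation of the mouse genome build GRCm38, and they are 43 of the 53379 genes in the deposited count table. They form 3 lists: 13 genes of G1 and the restriction point, 17 genes of S phase and 13 mitotic genes. All 43 passed the filter on low counts, as did 12386 genes in the whole table.

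The cells were bone marrow-derived macrophages (BMDMs) of 4 adult male mice of the C57Bl/6J strain with no genetic change. Marrow from femur and tibia was grown for a week in medium with fetal calf serum and L929 cell conditioned medium, which supplies the macrophage growth factor M-CSF, and the cells were plated again and left overnight. Cells of each mouse were then left untreated, or given 1 µM fenoterol, an agonist of the beta2-adrenergic receptor (B2AR), for 1 h or for 4 h in that same medium. Each group therefore holds 4 libraries, 1 per mouse, and a single untreated library per mouse served as the control of both time points.

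In a dividing cell, growth factor signals raise the D-type cyclins, which bind the kinases Cdk4 and Cdk6 and phosphorylate the retinoblastoma protein. E2F transcription factors are then released and switch on cyclin E and the genes of DNA replication. Later, the DREAM complex gives way to B-Myb and FoxM1, and the genes of mitosis are expressed. Macrophages in medium with M-CSF can still divide, and M-CSF acts on them partly through cyclin D1. Agents that raise cAMP, the second messenger of B2AR, are known to slow the division of macrophages held in M-CSF.

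The 12 libraries held between 14580533 and 24153284 counts. Values per library are counts normalized for library size and composition (TMM), and a call means an adjusted p under 0.05 in edgeR over all 12386 genes. Of all genes tested, 20.1% were called at 1 h (10.0% higher and 10.1% lower) and 40.0% at 4 h (19.7% higher and 20.4% lower). Between 4 h and 1 h 38.5% of genes were called, 18.7% higher and 19.8% lower at 4 h. With the mouse added to the fit as a block these shares were 27.0%, 47.4% and 46.6%.

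At 1 h, 4 of the 43 cell cycle genes passed the threshold, all of them higher (9.3% of the 43). These were *Ccnd1*, *Ccnd3*, *Cdk6* and *Aurka*. With scaling by library size alone, which put the median of all genes at -0.07, 4 were called as well, but *Ccnd1* and *Aurka* were higher and *Cdk2* and *Cdc20* lower. At 4 h, 13 passed it (30.2%), with 5 higher and 8 lower. The shares called were below those of all genes tested at both times. The median log2 change over the 43 genes was 0.08 at 1 h and 0.05 at 4 h, against 0.00 at both times over all genes tested. With the mouse as a block, 11 genes were called at 1 h (8 higher, 3 lower, 25.6%) and 21 at 4 h (13 higher, 8 lower, 48.8%), which brought the shares close to the 27.0% and 47.4% of all genes. The split at 1 h depended on the scaling, since the block with library size scaling gave 6 higher and 7 lower (30.2%, against 31.1% of all genes). Without mouse 1 the count at 1 h was 1, and without mouse 4 it was 2. Over all genes the calls at 1 h fell too, from 2493 to 1740 without mouse 1 and to 1991 without mouse 4. In these bulk libraries, fewer cycling cells and less of an RNA in each cell cannot be told apart.

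**Figure D1:**
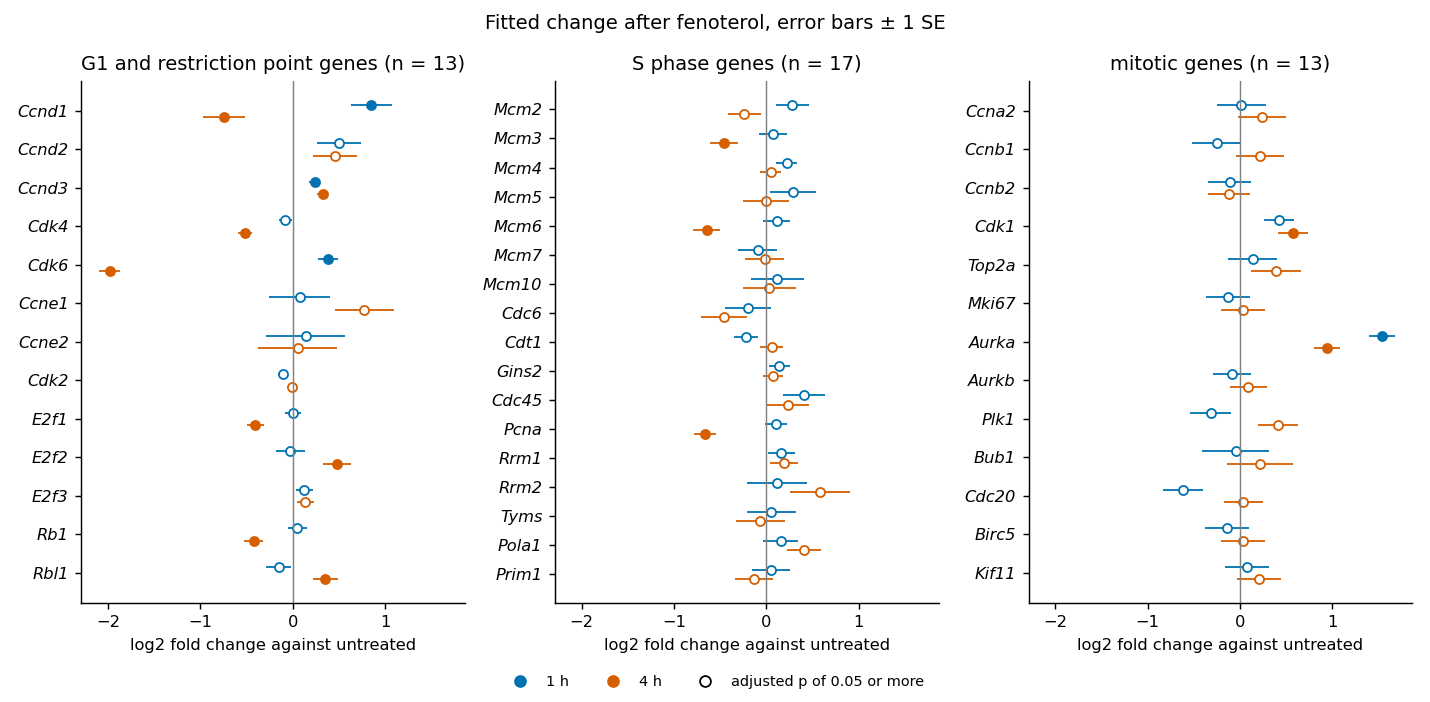
Fitted log2 fold change of each of the 43 genes after 1 h (blue) and 4 h (orange) of fenoterol against untreated cells, with bars of ± 1 SE, filled points where the adjusted p was under 0.05 and a panel for each list. *Cdk6* at 4 h (-1.98) and *Aurka* at 1 h (1.54) lie farthest from 0, and most S phase points are open with wide bars.

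In the fit without the block the G1 list held the most calls. At 1 h 3 of its 13 genes rose and none fell (23.1% called, against 20.1% of all genes), and at 4 h 3 rose and 5 fell (61.5%, against 40.0%). With the block 3 were called at 1 h (23.1%, against 27.0%), beside 4 in each of the S phase and mitotic lists. At 4 h the block gave 9 (69.2%, against 47.4%). The main entry kinases moved down by 4 h, *Cdk6* to 0.253 of its untreated level and *Cdk4* to 0.699. The D-type cyclins did not move together: *Ccnd1* rose and then fell below untreated cells, and *Ccnd3* rose at both times.

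*Ccnd1* encodes cyclin D1, the D-type cyclin most closely tied to growth factor signals. Its normalized counts in mice 1 to 4 were 986, 1139, 1399 and 1078 untreated, 2007, 1537, 2948 and 1789 at 1 h, and 625, 401, 817 and 884 at 4 h. Neither treated group overlapped the untreated libraries, lying above them at 1 h and below them at 4 h, and all 4 mice moved each way. The log2 change was 0.85 (SE 0.222, adjusted p = 0.0136) at 1 h and -0.75 (SE 0.227, adjusted p = 0.0167) at 4 h. Without mouse 1 both calls were lost, with log2 changes of 0.79 (adjusted p = 0.0966) and -0.78 (adjusted p = 0.0616). Exons of LTO1 on the opposite strand cover 23.4% of the exon bases of *Ccnd1*, and since the strand setting of the counting is not given in the sources used here, reads of both genes may not be fully separate. LTO1 moved the other way at both times, with log2 changes of -0.39 and 0.17.

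*Ccnd3*, cyclin D3, had 813, 895, 807 and 812 normalized counts in untreated cells. It had 983, 940, 928 and 1068 at 1 h and 1123, 1019, 986 and 1039 at 4 h, so that every treated library lay above every untreated one. The rise was small, with log2 changes of 0.24 (SE 0.0612, adjusted p = 0.0124) and 0.33 (SE 0.061, adjusted p = 0.00059). The 1 h call was lost with scaling by library size alone (0.17, adjusted p = 0.0592), without mouse 1 (0.23, adjusted p = 0.0608) and without mouse 4 (0.18, adjusted p = 0.112). *Ccnd2*, cyclin D2, was the least abundant gene of this list per length, at 0.472 RPKM in untreated cells against 12.5 for *Ccnd1* and 4.83 for *Ccnd3*. It was at 67.9 to 109.9 untreated, 108.1 to 144.2 at 1 h and 78.3 to 181.7 at 4 h in normalized counts, and its groups overlapped. Its changes of 0.50 and 0.45 did not pass the test (adjusted p = 0.173 and 0.149), although without mouse 2 the 4 h change was 0.73 (adjusted p = 0.0374).

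*Cdk6*, one of the kinases that D-type cyclins activate, showed the largest fall of the 43 genes. In mice 1 to 4 it was at 1595, 1634, 1938 and 1756 normalized counts untreated, at 2447, 1960, 2450 and 2176 at 1 h, and at 477, 328, 444 and 499 at 4 h. The highest 4 h library, at 499, lay far below the lowest untreated one, at 1595, and the 1 h libraries all lay above the untreated ones. The log2 change was 0.38 (SE 0.109, adjusted p = 0.0219) at 1 h and -1.98 (SE 0.117, adjusted p = 6.15e-09) at 4 h. The small rise at 1 h lost its call without either 1 h replicate 1 or 3 or untreated replicate 1 or 2 (log2 changes of 0.34 to 0.36, adjusted p = 0.0627 to 0.0691) and with scaling by library size alone (0.32, adjusted p = 0.0584). It was also lost without mouse 1, 3 or 4 (0.31, 0.41 and 0.41, adjusted p = 0.173, 0.0593 and 0.0548). The fall at 4 h was called in all 25 alternatives, between -2.06 and -1.87.

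The promoter of *Cdk6* is shown because this gene moved most. CREB, the transcription factor that cAMP signalling activates, binds the cAMP response element. The window runs from 250 bases before to 50 bases after the RefSeq transcription start, at chr5:3343643-3343942 on the plus strand of GRCm38.p6. Capitals mark the core TGACG of the cAMP response element, found once, 81 bases before the start.
Cdk6: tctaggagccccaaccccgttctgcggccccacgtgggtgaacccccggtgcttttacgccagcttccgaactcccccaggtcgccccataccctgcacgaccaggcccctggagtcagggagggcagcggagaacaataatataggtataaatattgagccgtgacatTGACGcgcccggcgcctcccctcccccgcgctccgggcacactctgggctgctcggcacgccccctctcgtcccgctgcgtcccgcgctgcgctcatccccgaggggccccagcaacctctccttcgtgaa

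The full element TGACGTCA was in no G1 promoter of the 9 that the RefSeq table holds, and the TGACG core was in 6 of them on either strand. Over all 27025 genes with a promoter in the table, 2.03% held the full element and 23.0% the TGACG core, which the full element contains. *Ccnd3*, *Cdk4* and *E2f1* also had the TGACG core, so it was shared by genes that rose and genes that fell.

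*Cdk4* was the most abundant of the 43 genes per length (37.1 RPKM untreated). Its normalized counts were 2406, 2309, 2470 and 2264 untreated, 2329, 2116, 2332 and 2168 at 1 h, and 1883, 1450, 1753 and 1519 at 4 h. All 4 mice fell between untreated and 4 h with no overlap of the groups, by a log2 change of -0.52 (SE 0.0753, adjusted p = 6.42e-05), while the 1 h change was -0.08 (adjusted p = 0.538). The opposite-strand gene *Tspan31* covers 19.7% of its exon bases and had a log2 change of 0.07 at 4 h (adjusted p = 0.292).

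Among the transcription factors and pocket proteins that these kinases act on, *E2f1* and *Rb1* fell at 4 h and *E2f2* and *Rbl1* rose. *E2f1*, an activator of replication genes, was at 823 to 947 normalized counts untreated and 541 to 757 at 4 h, with no overlap (log2 change -0.41, SE 0.0904, adjusted p = 0.00223). *Rb1*, which encodes the retinoblastoma protein, was at 990 to 1202 untreated and 658 to 942 at 4 h, again with no overlap (-0.42, SE 0.103, adjusted p = 0.00442). Exons of *Rcbtb2* and *Lpar6* on the opposite strand cover 14.9% of the exon bases of *Rb1* and held 99407 and 22862 counts over all libraries against 12347 for *Rb1*, with 4 h changes of -0.17 (adjusted p = 0.254) and 0.50 (adjusted p = 0.00161). At 1 h *E2f1* and *Rb1* had changes of 0.00 and 0.05 (adjusted p = 0.998 and 0.803).

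*E2f2*, another activator E2F, was at 285, 206, 235 and 201 untreated and at 404, 267, 331 and 301 normalized counts at 4 h. The groups overlapped, yet each mouse was higher at 4 h, and the change of 0.48 (SE 0.153) had an adjusted p of 0.0209. This call was lost without 4 h replicate 1, untreated replicate 2 or untreated replicate 4 (0.37 to 0.43, adjusted p = 0.0615 to 0.0769), and without mouse 3 or 4 (0.48 and 0.46, adjusted p = 0.0795 and 0.0772). *Rbl1*, which encodes the pocket protein p107, was at 532, 367, 485 and 383 untreated and 602, 530, 557 and 578 at 4 h, higher in all 4 mice. Its change of 0.35 (SE 0.133, adjusted p = 0.0468) was close to the threshold. It was lost without any of 8 single libraries, which were 1 h replicate 1, each of the 4 h libraries and untreated replicates 2, 3 and 4 (0.28 to 0.39, adjusted p = 0.0502 to 0.141). It was lost too without mouse 2, 3 or 4 (0.31, 0.41 and 0.28, adjusted p = 0.0883, 0.0606 and 0.203). Both genes kept their calls with the mouse as a block, with adjusted p-values of 8.25e-05 and 0.00165.

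Cyclin E and Cdk2 act after the D-type cyclins. *Ccne1*, cyclin E1, was at 78.8, 57.6, 93.6 and 56.0 normalized counts untreated and 146.0, 75.2, 145.4 and 125.5 at 4 h. It was higher in all 4 mice at 4 h by 0.77 (SE 0.32, adjusted p = 0.0700), and the block brought it past the threshold (0.79, adjusted p = 0.00188), as did leaving out 4 h replicate 2 (0.95, adjusted p = 0.0318) or 1 h replicate 2 or 3 (0.77 and 0.76, adjusted p = 0.0374 and 0.0297). It was called too by DESeq2 (0.78, adjusted p = 0.0374), with only the 2 groups in the fit (0.77, adjusted p = 0.0214), with no filter (0.78, adjusted p = 0.0283) and without mouse 2 or 3 (0.86 and 0.84, adjusted p = 0.0306 and 0.0490). *Ccne2* was at 12.1 to 70.1 untreated and 29.2 to 60.8 at 4 h, a change of 0.05 with an SE of 0.427, so only a large change could have been detected. With the block the change was 0.12, with a smaller SE of 0.254 (adjusted p = 0.737). Exons of *Ints8* lie opposite 17.4% of its exon bases and held 5207 counts over all libraries against 581 for *Ccne2*. *Cdk2* had 798 to 863 counts untreated, 699 to 823 at 1 h and 805 to 835 at 4 h, with changes of -0.11 (SE 0.0551, adjusted p = 0.202) and -0.01 (SE 0.0548, adjusted p = 0.956). With scaling by library size alone it was called lower at 1 h (-0.18, adjusted p = 0.0299). *E2f3* had changes of 0.13 and 0.14 (adjusted p = 0.422 and 0.284), and its groups overlapped.

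**Figure D2:**
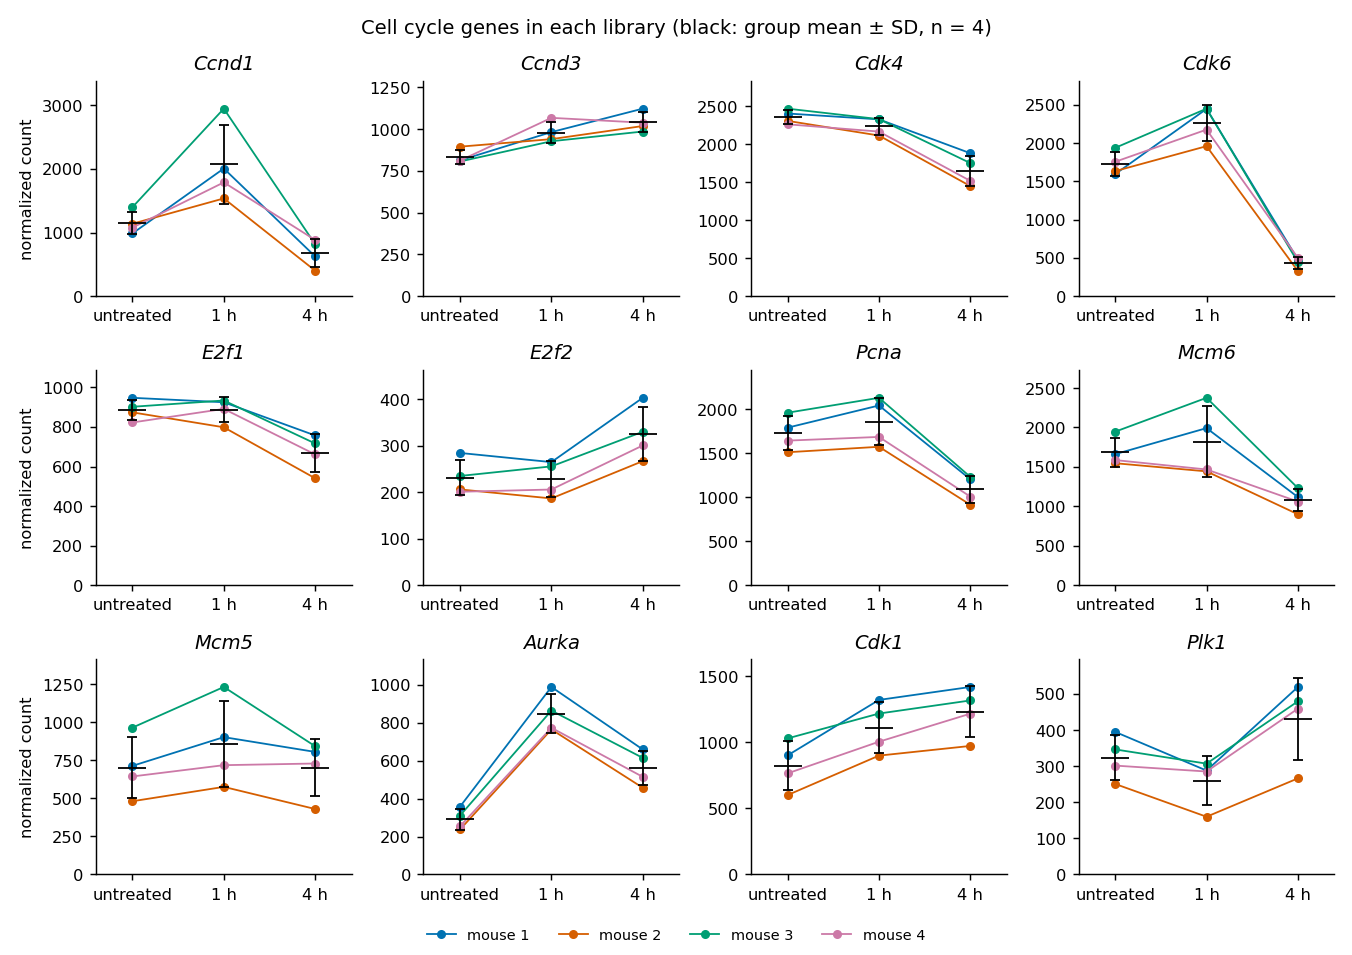
Normalized counts of 12 cell cycle genes in each library, with a coloured line for each of the 4 mice across untreated, 1 h and 4 h cells, and the mean ± SD of each group (n = 4) in black. *Cdk6* falls to 328 to 499 in all mice at 4 h, *Aurka* peaks at 1 h, and the line of mouse 2 runs lowest in all 3 groups for *Mcm5*, *Aurka*, *Cdk1* and *Plk1*.

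The S phase list split into a few genes that fell by 4 h and many that did not pass the test. At 1 h none of its 17 genes was called by edgeR, and none had an unadjusted p under 0.05. DESeq2 and limma-voom also called 0. With the block 4 of the 17 were called at 1 h, *Mcm5*, *Cdc45* and *Rrm1* higher and *Cdt1* lower (23.5%, against 27.0% of all genes). At 4 h 3 fell, *Pcna*, *Mcm6* and *Mcm3*, and none rose (17.6%, against 40.0%). With the block *Rrm1*, *Rrm2* and *Pola1* were also called at 4 h, all higher (35.3%, against 47.4%). The median change of the list was 0.12 at 1 h and 0.00 at 4 h.

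*Pcna* encodes the sliding clamp that holds DNA polymerase on its template. Its normalized counts were 1790, 1511, 1960 and 1643 untreated, 2042, 1573, 2129 and 1685 at 1 h, and 1204, 915, 1231 and 1007 at 4 h. The highest 4 h library lay below the lowest untreated library, and the mice kept the same order in all groups. The log2 change at 4 h was -0.67 (SE 0.117, adjusted p = 0.00035), and that at 1 h was 0.11 (adjusted p = 0.608). A share of 19.1% of its 50-base stretches also occurs in another gene, mainly the pseudogene Pcna-ps2, which held 81 counts over all libraries against 18600 for *Pcna*.

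The Mcm2 to Mcm7 proteins form the replicative helicase, yet their RNAs did not move alike. *Mcm6* was at 1662, 1547, 1947 and 1587 normalized counts untreated, 1992, 1444, 2376 and 1468 at 1 h, and 1118, 900, 1232 and 1061 at 4 h. By 4 h it was lower in all 4 mice, with no overlap, and its log2 change was -0.65 (SE 0.146, adjusted p = 0.00258). *Mcm3* was at 978, 820, 1079 and 966 untreated and 752, 574, 792 and 678 at 4 h, also without overlap (-0.46, SE 0.151, adjusted p = 0.0250). The *Mcm3* call was lost without 4 h replicate 2 or 4 or untreated replicate 1 or 3 (-0.45 to -0.38, adjusted p = 0.0527 to 0.0774), and without mouse 1 or 4 (-0.49 and -0.44, adjusted p = 0.0806 and 0.101).

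The other helicase genes did not pass the test at 4 h. *Mcm2* had a change of -0.24 (SE 0.183, adjusted p = 0.335) and was lower in all 4 mice. *Mcm4*, *Mcm5* and *Mcm7* had changes of 0.05, 0.00 and -0.02, with SEs of 0.114, 0.251 and 0.209. *Mcm5* was at 714, 481, 965 and 644 untreated, 902, 576, 1232 and 718 at 1 h, and 805, 430, 843 and 729 at 4 h, so that mice differed from each other far more than times did. With the mouse as a block its 1 h change of 0.28 had an adjusted p of 0.0142. Of the 50-base stretches of *Mcm7*, 23.3% are shared with other genes.

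The promoters of *Pcna* and *Mcm6* are shown as those of the genes with the largest falls in this list, one with and one without E2F letters. They lie at chr2:132253131-132253430 (*Pcna*) and chr1:128359656-128359955 (*Mcm6*) of GRCm38.p6, both on the minus strand, and are printed in the direction of transcription. Capitals mark the E2F letters searched (TTTCCCGC, TTTCGCGC, TTTGCCGC and TTTGGCGC), the CCAAT box, the core TGACG and the cell cycle homology region (CHR) TTTGAA, each on either strand.
Pcna: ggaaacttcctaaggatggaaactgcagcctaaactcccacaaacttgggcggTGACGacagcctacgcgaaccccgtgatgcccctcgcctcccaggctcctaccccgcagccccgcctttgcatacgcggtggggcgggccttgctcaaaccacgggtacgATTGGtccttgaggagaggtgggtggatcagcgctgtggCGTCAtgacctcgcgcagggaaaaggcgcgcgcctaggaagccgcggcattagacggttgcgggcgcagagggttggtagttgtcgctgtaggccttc
Mcm6: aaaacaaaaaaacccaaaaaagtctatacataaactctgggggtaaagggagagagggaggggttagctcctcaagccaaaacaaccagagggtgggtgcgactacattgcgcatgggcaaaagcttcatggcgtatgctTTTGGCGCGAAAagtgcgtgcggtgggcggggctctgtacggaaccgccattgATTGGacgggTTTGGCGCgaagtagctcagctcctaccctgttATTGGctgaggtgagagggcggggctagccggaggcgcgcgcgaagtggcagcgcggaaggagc

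*Pcna* held 2 TGACG cores and a CCAAT box, and *Mcm6* held 3 E2F matches, 2 of which overlap, and 2 CCAAT boxes. E2F letters were in 7 of the 15 S phase promoters in the table, against 2.6% of all promoters, and the CCAAT box in 12, against 41.1%. Of the 3 genes that fell, *Mcm3* and *Mcm6* had E2F letters. *Mcm5*, *Mcm7*, *Cdc6*, *Cdt1* and *Pola1* had them too, and were not called at 4 h by the fit without the block. *Mcm5* alone among the 35 cell cycle genes in the table held the full cAMP response element.

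Of the remaining S phase genes, *Cdc6* and *Cdt1* load the helicase at origins, and *Mcm10*, *Gins2* and *Cdc45* turn it on. *Cdc6* was at 60.3 to 126.4 normalized counts untreated and 52.2 to 71.97 at 4 h, lower in all 4 mice (-0.46, SE 0.251, adjusted p = 0.170). *Cdt1* was lower in all 4 mice at 1 h (-0.22, adjusted p = 0.284, and 0.0473 with the block) and had a change of 0.06 at 4 h. *Cdc45* was higher in all 4 mice at 1 h, at 155, 94.6, 176 and 129 against 107, 71.0, 136 and 102 untreated (0.40, adjusted p = 0.257, and 0.0152 with the block). *Gins2* and *Mcm10* had changes between 0.03 and 0.14 at the 2 times, and 67.3% of the exon bases of *Gins2* lie opposite exons of *Gse1*, a gene that rose by 0.53 at 4 h.

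Ribonucleotide reductase makes the deoxynucleotides for DNA synthesis, and both of its subunit genes had 4 h changes above 0. *Rrm2* was at 354, 129, 392 and 297 untreated, 395, 159, 420 and 307 at 1 h, and 514, 270, 439 and 547 at 4 h. Each mouse was higher at 4 h, but untreated mice already ranged from 129 to 392, and the change of 0.58 (SE 0.322) had an adjusted p of 0.173. With the mouse as a block the change was 0.63 (adjusted p = 0.000261), and without mouse 2 it was 0.52 (adjusted p = 0.0142). *Rrm1* had changes of 0.16 at 1 h (adjusted p = 0.522, and 0.0320 with the block) and 0.19 at 4 h (adjusted p = 0.339, and 0.00501 with the block). *Pola1*, the catalytic subunit of the polymerase that starts each strand, had a 4 h change of 0.41 (adjusted p = 0.102), 0.44 with the block (adjusted p = 0.0219) and 0.57 without untreated replicate 3 (adjusted p = 0.0229). It was also called without mouse 3 (0.63, adjusted p = 0.00777), and narrowly with only the 2 groups in the fit or with no filter (0.41 and 0.42, adjusted p = 0.0496 and 0.0469). *Prim1*, its primase partner, and *Tyms*, which makes thymidylate, had changes between -0.13 and 0.06 at the 2 times.

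In the mitotic list, *Aurka* rose at both times and *Cdk1* at 4 h, and no gene fell. At 4 h 12 of the 13 fitted changes were above 0 (6266 of 12386 over all genes), with a median of 0.22, but with only 2 calls (15.4%, against 40.0% of all genes). At 1 h the median was -0.09 with 1 call (7.69%, against 20.1%), and the block added *Cdk1*, higher, and *Plk1* and *Cdc20*, lower (30.8%, against 27.0%). With the mouse as a block, 6 of the 13 were called at 4 h, all higher: *Aurka*, *Cdk1*, *Ccna2*, *Top2a*, *Plk1* and *Kif11* (46.2%, against 47.4% of all genes).

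*Aurka* encodes Aurora A, a kinase of the centrosome and spindle. Its normalized counts were 358, 237, 311 and 254 untreated, 989, 765, 864 and 774 at 1 h, and 659, 457, 615 and 515 at 4 h. The 3 groups did not overlap, and the order of the mice was the same in each. The log2 change was 1.54 (SE 0.141, adjusted p = 1.29e-06) at 1 h, a fold of 2.91, and 0.94 (SE 0.141, adjusted p = 8.22e-05) at 4 h. *Aurka* was the only member called higher at more than 2-fold at either time. Its relative *Aurkb*, which encodes the kinase of the chromosomal passenger complex, had changes of -0.09 and 0.09 (SE 0.204 and 0.202), and *Birc5*, the survivin of the same complex, had -0.14 and 0.04 (SE 0.24 and 0.238).

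*Cdk1*, the kinase that starts mitosis, was at 901, 601, 1029 and 765 normalized counts untreated, 1320, 899, 1217 and 1004 at 1 h, and 1418, 972, 1316 and 1216 at 4 h. All 4 mice were higher at both times, although the groups overlapped. The change at 4 h was 0.57 (SE 0.16, adjusted p = 0.0101) and was not called without mouse 4 (0.54, adjusted p = 0.0561). The change at 1 h was 0.43 (adjusted p = 0.0808). It was past the threshold with the block (0.44, adjusted p = 6.15e-05), and without 1 h replicate 2 (0.51, adjusted p = 0.0464) or untreated replicate 3 (0.55, adjusted p = 0.0289). DESeq2 (0.43, adjusted p = 0.0340) and the fit with no filter (0.43, adjusted p = 0.0204) called it too.

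The cyclin partners of *Cdk1* were not called against untreated cells by the fit without the block. *Ccnb1* and *Ccnb2* encode the B-type cyclins. *Ccnb2*, the most abundant mitotic gene per length (20.6 RPKM untreated), was at 409 to 778 normalized counts untreated and 368 to 781 at 4 h, a change of -0.11 (SE 0.228, adjusted p = 0.738). *Ccnb1* had changes of -0.25 and 0.22 (SE 0.266 and 0.26), and 23.4% of its 50-base stretches are shared, mainly with the pseudogene Ccnb1-ps. *Ccna2*, cyclin A2, was at 803, 378, 762 and 652 untreated and 958, 481, 797 and 843 at 4 h, higher in each mouse, with a change of 0.24 (adjusted p = 0.508, and 0.00628 with the block). Exons of *Exosc9* lie opposite 12.5% of its exon bases, and that gene rose at 4 h by 0.19 (adjusted p = 0.0200).

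*Plk1*, Polo-like kinase, and *Cdc20*, the activator of the anaphase-promoting complex, lay lowest at 1 h. *Plk1* was at 395, 251, 346 and 302 normalized counts untreated, 288, 160, 307 and 285 at 1 h, and 519, 266, 480 and 459 at 4 h. Each mouse was lower at 1 h and higher at 4 h than untreated, with changes of -0.32 (adjusted p = 0.378, and 0.0154 with the block) and 0.41 (adjusted p = 0.155, and 0.00111 with the block). Without 4 h replicate 2 the 4 h change was 0.58 (adjusted p = 0.0280), and without mouse 2 it was 0.48 (adjusted p = 0.00497). *Cdc20* was at 536, 303, 446 and 416 untreated, 310, 190, 339 and 271 at 1 h, and 579, 300, 491 and 384 at 4 h. It was lower at 1 h in all 4 mice, by a change of -0.62 (SE 0.217, adjusted p = 0.0615), called with the block (adjusted p = 2.29e-05), by DESeq2 (adjusted p = 0.0226) and without untreated replicate 2 (-0.74, adjusted p = 0.0307) or 4 h replicate 1 or 2 (both -0.62, adjusted p = 0.0489 and 0.0398). It was called as well with scaling by library size alone (-0.68, adjusted p = 0.0347), with only the 2 groups in the fit (-0.61, adjusted p = 0.0470), with no filter (-0.62, adjusted p = 0.0138) and without mouse 2 (-0.60, adjusted p = 0.0235). At 4 h its change was 0.04.

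*Top2a*, the topoisomerase that untangles replicated chromosomes, was at 2336, 1115, 2318 and 1646 normalized counts untreated and 2959, 1563, 2642 and 2587 at 4 h. The 4 h change was 0.39 (SE 0.267, adjusted p = 0.273, and 6.79e-05 with the block). *Mki67*, the gene of the proliferation marker Ki-67, was at 3441, 1697, 2800 and 2421 untreated, 2748, 1510, 2910 and 2301 at 1 h, and 3151, 1663, 3034 and 2768 at 4 h. Its changes were -0.13 and 0.03 (SE 0.237 at both times, adjusted p = 0.776 and 0.933), with mice on both sides of 0. *Bub1*, a spindle checkpoint kinase, and *Kif11*, a spindle motor, had 4 h changes of 0.22 and 0.21 (adjusted p = 0.674 and 0.529). *Kif11* was called with the block (0.25, adjusted p = 0.0258).

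The promoters of *Cdk1*, *Aurka* and *Plk1* are shown for their motifs, a CCAAT box and a CHR being common in this list. The first 2 genes are those called against untreated cells, and *Plk1* was called between 1 h and 4 h. They lie at chr10:69352863-69353162 (*Cdk1*, minus strand), chr2:172370521-172370820 (*Aurka*, minus strand) and chr7:122159185-122159484 (*Plk1*, plus strand) of GRCm38.p6, with the same letters in capitals as above.
Cdk1: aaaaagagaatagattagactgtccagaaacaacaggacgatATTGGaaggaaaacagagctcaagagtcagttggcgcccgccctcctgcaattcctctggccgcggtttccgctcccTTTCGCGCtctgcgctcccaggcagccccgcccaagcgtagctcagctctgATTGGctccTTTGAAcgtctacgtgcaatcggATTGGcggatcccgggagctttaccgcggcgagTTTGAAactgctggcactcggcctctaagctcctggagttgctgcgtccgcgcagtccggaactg
Aurka: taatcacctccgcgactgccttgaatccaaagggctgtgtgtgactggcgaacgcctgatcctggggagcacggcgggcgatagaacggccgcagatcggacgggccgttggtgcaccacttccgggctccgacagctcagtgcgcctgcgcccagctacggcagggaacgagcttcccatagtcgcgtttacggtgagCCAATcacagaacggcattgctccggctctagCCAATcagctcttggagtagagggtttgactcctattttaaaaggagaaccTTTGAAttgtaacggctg
Plk1: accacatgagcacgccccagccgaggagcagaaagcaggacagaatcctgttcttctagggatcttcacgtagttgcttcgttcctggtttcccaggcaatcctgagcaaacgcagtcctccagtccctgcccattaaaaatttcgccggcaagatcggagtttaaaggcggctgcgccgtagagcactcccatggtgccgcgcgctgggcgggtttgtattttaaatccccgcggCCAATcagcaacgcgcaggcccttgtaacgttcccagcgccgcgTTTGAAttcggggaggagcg

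The CHR letters TTTGAA were in 8 of the 11 mitotic promoters in the table, against 20.2% of all promoters, and the CCAAT box in 10. In *Aurka* the CCAAT boxes begin 51 and 19 bases before the start and the CHR 33 bases after it, and in *Plk1* the box begins 14 bases before and the CHR 31 bases after. *Cdk1* held E2F letters as well, and *Aurka* held neither a cAMP response element nor its TGACG core. *Mki67* and *Cdc20* had the same pair of motifs as *Aurka*.

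Between 1 h and 4 h, 14 of the 43 genes differed (32.6%, against 38.5% of all genes), 4 higher and 10 lower at 4 h. In the G1 list 5 were lower, *Ccnd1* (-1.60, SE 0.228, adjusted p = 6.97e-05), *Cdk6* (-2.37, SE 0.118, adjusted p = 2.13e-09), *Cdk4* (-0.44), *E2f1* (-0.41) and *Rb1* (-0.47), and *E2f2* and *Rbl1* were higher (both 0.51). In the S phase list *Pcna* (-0.77), *Mcm6* (-0.76), *Mcm3* (-0.53) and *Mcm2* (-0.52, adjusted p = 0.0356) were lower and none was higher. *Plk1* (0.73, adjusted p = 0.0172) and *Cdc20* (0.65, adjusted p = 0.0277) were higher and *Aurka* (-0.60, adjusted p = 0.00281) lower in the mitotic list. With the mouse as a block 23 of the 43 differed, 12 higher and 11 lower (53.5%, against 46.6% of all genes). With the block and library size scaling together the split was 19 higher and 10 lower (67.4%, against 51.2%), and 11 of the 13 mitotic genes were higher and 1 lower. The block added *Ccne1* (0.74, adjusted p = 0.00304) in the G1 list, and in the S phase list *Cdt1* (0.28, adjusted p = 0.00719) and *Rrm2* (0.50, adjusted p = 0.00193), higher, and *Mcm5* (-0.27, adjusted p = 0.0096), lower. It added 5 mitotic genes, all higher. These were *Ccna2* (0.24, adjusted p = 0.0103), *Ccnb1* (0.48, adjusted p = 0.0168), *Top2a* (0.28, adjusted p = 0.0024), *Mki67* (0.17, adjusted p = 0.0296) and *Bub1* (0.31, adjusted p = 0.0358).

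Several of these calls were lost without 1 library or 1 mouse. *Mcm2* was lost without 1 h replicate 1 or 3 or 4 h replicate 1 or 2 (-0.55 to -0.33, adjusted p = 0.0524 to 0.122), and without mouse 1, 3 or 4 (-0.53, -0.36 and -0.62, adjusted p = 0.115, 0.135 and 0.0577). It was lost as well with limma-voom (-0.49, adjusted p = 0.0509), with scaling by library size alone (-0.43, adjusted p = 0.0785) and with only the 2 groups in the fit (-0.52, adjusted p = 0.0605). *Cdc20* was lost without 1 h replicate 2 or 4 or 4 h replicate 1 or 3 (0.49 to 0.64, adjusted p = 0.0573 to 0.0972), *Plk1* without 4 h replicate 1 (0.63, adjusted p = 0.0548), and *E2f2* without 1 h replicate 2 or 4 h replicate 1 (0.42 and 0.39, adjusted p = 0.0572 and 0.0630). Without mouse 1, 3 or 4 the calls of *Cdc20* (0.55, 0.70 and 0.70, adjusted p = 0.0951, 0.0719 and 0.0740) and *Plk1* (0.68, 0.76 and 0.74, adjusted p = 0.0721, 0.0609 and 0.0648) were lost. *E2f2* was lost without mouse 3 or 4 (0.55 and 0.50, adjusted p = 0.0540 and 0.0579), and *Mcm3* without mouse 1 (-0.56, adjusted p = 0.0507). *Ccne1* and *Cdt1* gained a call without 1 h replicate 3 (1.09 and 0.39, adjusted p = 0.00933 and 0.0186), and *Ccne1* also without 4 h replicate 2 (0.87, adjusted p = 0.0480). Without mouse 3 *Ccne1* (1.01, adjusted p = 0.0256), *Cdt1* (0.35, adjusted p = 0.0357) and *Pola1* (0.47, adjusted p = 0.0350) were called, and without mouse 2 *Rrm2* (0.42, adjusted p = 0.0432). Scaling by library size alone put the median of all genes in this comparison at 0.10, against 0.01. With it 16 of the 43 genes were called (37.2%, against 43.1% of all genes), 7 higher and 9 lower, the added ones being *Ccnd3* (0.18), *Cdk2* (0.20) and *Cdt1* (0.37).

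The 3 lists are set side by side here with no test between them. At 4 h, 8 of 13 G1 genes (61.5%), 3 of 17 S phase genes (17.6%) and 2 of 13 mitotic genes (15.4%) were called, beside 40.0% of all genes. The block brought these counts to 9, 6 and 6 (69.2%, 35.3% and 46.2%), beside 47.4% of all genes. Their median 4 h changes were 0.05, 0.00 and 0.22. The SE of a mitotic gene's 4 h change ran from 0.141 to 0.355 and that of a G1 gene from 0.055 to 0.427, and with the block the mitotic SEs ran from 0.059 to 0.15.

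Other genes of the pathway were described from fixed lists. Of 8 genes for inhibitors of cyclin-dependent kinases, 2 rose at 1 h and 3 at 4 h, and none fell (25.0% and 37.5% called, against 20.1% and 40.0% of all genes). *Cdkn1a*, which encodes p21, was at 5013, 4774, 4477 and 4484 normalized counts untreated, between 18300 and 21140 at 1 h and between 8303 and 10850 at 4 h. Its groups did not overlap, and its log2 changes were 2.11 (adjusted p = 8.41e-11) and 1.07 (adjusted p = 6.60e-08). *Cdkn1b*, which encodes p27, rose by 0.95 (adjusted p = 8.81e-07) and 0.36 (adjusted p = 0.00288). *Cdkn2d*, an inhibitor of Cdk4 and Cdk6, was at 290 to 403 untreated and 488 to 723 at 4 h and rose by 0.74 (adjusted p = 0.000214), with 0.31 at 1 h (adjusted p = 0.107, and 0.0126 with the block).

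Of 16 further genes of the E2F, pocket protein and DREAM group, 1 rose and 3 fell at 1 h, and 2 rose and 3 fell at 4 h (25.0% and 31.2%, against 20.1% and 40.0%). With the block 5 and 6 were called (31.2% and 37.5%, against 27.0% and 47.4% of all genes). *Lin54*, the DNA-binding subunit of DREAM that reads the CHR, was at 349, 249, 400 and 305 normalized counts untreated, 2177, 2021, 1674 and 1601 at 1 h, and 534, 503, 524 and 534 at 4 h. It rose by 2.51 (adjusted p = 1.51e-09) and 0.68 (adjusted p = 0.000600). *Lin9*, another subunit of the same core, fell by 0.65 (adjusted p = 0.00777) and 0.66 (adjusted p = 0.00333) on the log2 scale. *Lin37* (-0.37) and *Rbl2* (-0.22) fell at 1 h, *Tfdp2* (-0.40) and *E2f6* (-0.33) fell at 4 h, and *E2f5* rose at 4 h (0.33).

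Of 44 further replication genes, 2 rose at 1 h (4.55%, against 20.1% of all genes), and 6 rose and 2 fell at 4 h (18.2%, against 40.0%). With the block 8 and 16 were called (18.2% and 36.4%, against 27.0% and 47.4%). *Orc1*, the largest subunit of the origin recognition complex, was at 6.70 to 26.1 normalized counts untreated, 114 to 155 at 1 h and 13.9 to 25.7 at 4 h. It rose by 2.68 at 1 h (adjusted p = 4.47e-06), and its change at 4 h was -0.10 (adjusted p = 0.847). *Orc1* met the rule on mean count for naming a gene only through its 1 h libraries, where it was highest. Its choice for naming was therefore not independent of the rise at 1 h. *Fen1*, the nuclease that trims Okazaki fragments, rose at both times (0.40 and 0.52), *Gins3* (0.91) and *Gmnn*, the gene of geminin (0.41), rose at 4 h, and *Pola2* (-0.39) and *Rfc1* (-0.36) fell at 4 h.

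Of 51 further mitotic genes tested of 52 listed, 1 rose at 1 h and 2 at 4 h, and none fell (1.96% and 3.92%, against 20.1% and 40.0% of all genes). At 4 h 45 of the 51 fitted changes were above 0 (6266 of 12386 over all genes), with a median of 0.20. With the mouse as a block 29 were called, all higher (56.9%, against 47.4% of all genes). At 1 h with the block 3 were higher and 9 lower (23.5%, against 27.0%). *Cenpa*, the histone of the centromere, was at 1214 to 1505 normalized counts untreated, 3061 to 3569 at 1 h and 4382 to 5584 at 4 h, with changes of 1.31 (adjusted p = 3.62e-08) and 1.87 (adjusted p = 6.47e-10). *Ckap5*, which promotes microtubule growth, rose at 4 h by 0.25. Of 15 regulators of kinase activity, 1 was called at 1 h and 4 at 4 h (6.67% and 26.7%, against 20.1% and 40.0%). With the block 3 and 5 of these were called (20.0% and 33.3%, against 27.0% and 47.4%). *Skp2*, the subunit of the ligase that targets p27, fell at both times (-0.60 and -0.35, adjusted p = 0.00173 and 0.0233). *Mnat1* (-0.44) and *Cdc14b* (-0.32) fell and *Fzr1* (0.20) rose at 4 h.

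**Figure D3:**
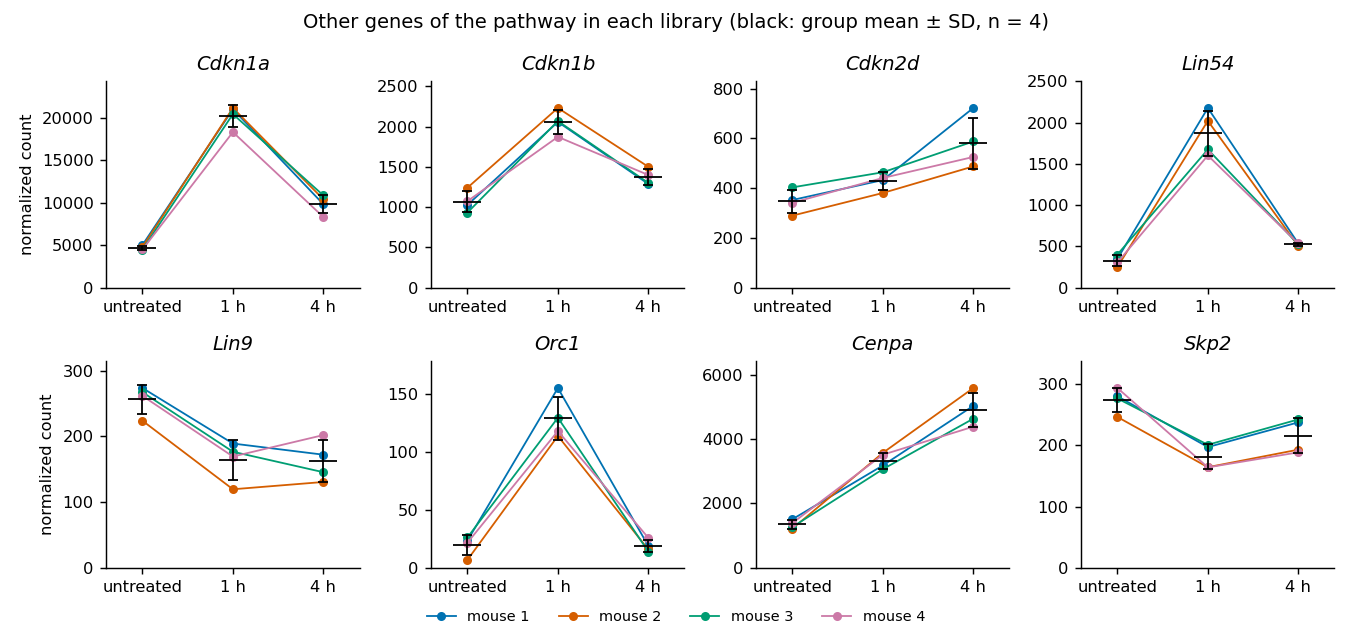
Normalized counts of 8 other genes of the pathway in each library, with a coloured line for each mouse and the mean ± SD of each group (n = 4) in black. *Cdkn1a*, *Lin54* and *Orc1* peak at 1 h in every mouse, while *Cenpa* rises on to 4382 to 5584 at 4 h.

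Mice differed from each other in most S phase and mitotic genes more than the groups did, a pattern noted after the values were seen. Of the sum of squares of log2 counts over the 12 libraries, the median share lying between mice was 84.7% for mitotic genes, 64.9% for S phase genes, 21.1% for G1 genes and 17.0% for all genes tested. The shares lying between the groups were 7.82%, 20.9%, 57.1% and 51.6%. Among mitotic genes *Aurka*, with 91.1% between groups and 8.42% between mice, and *Cdk1*, with 52.3% and 43.8%, had the larger share between groups. So did 4 S phase genes, *Pcna* (80.5% and 19.0%), *Mcm6* (70.3% and 24.2%), *Mcm3* (51.9% and 41.8%) and *Pola1* (30.3% and 25.6%). In the G1 list *Cdk6* had 97.4% between groups.

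Mouse 2 was the lowest of the 4 mice in untreated, 1 h and 4 h cells alike for 13 of 13 mitotic genes, 14 of 17 S phase genes and 2 of 13 G1 genes, and for 5.76% of all genes tested. For mitotic genes its normalized count was a median of 58.8%, 57.3% and 57.3% of the mean of the other 3 mice in the 3 groups. *Bub1* was lowest, at 43.6%, 41.9% and 47.4%, and *Mki67* was at 58.8%, 56.9% and 55.7%. For S phase genes the medians were 74.5%, 70.1% and 75.7%. Mouse 3 was highest in all 3 groups for 9 of the 17 S phase genes (3.0% of all genes tested), and mouse 1 for 5 of the 13 mitotic genes (6.08%).

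**Figure D4:**
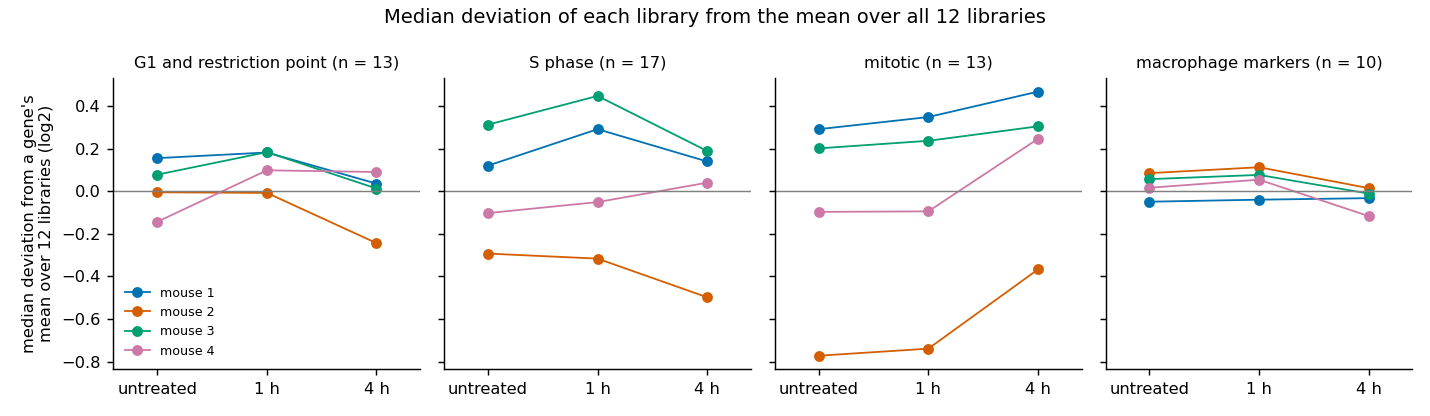
Median over each list of the log2 normalized count minus the gene's mean over all 12 libraries, for each mouse across untreated, 1 h and 4 h cells, with a panel for each list and one for 10 macrophage markers. Mouse 2 lies at -0.77, -0.74 and -0.37 in the mitotic panel, while the median over the macrophage markers lies between -0.12 and 0.11 in all libraries.

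**Figure D5:**
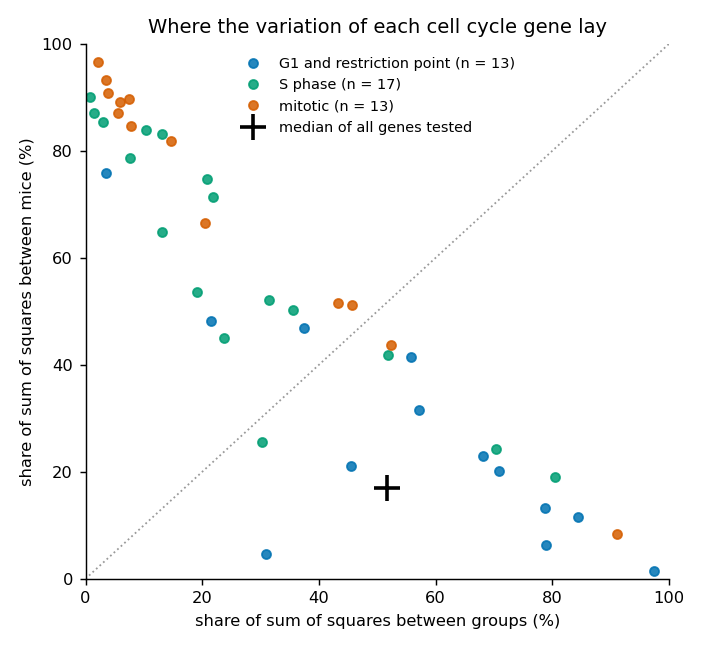
Share of each gene's sum of squares between groups (horizontal, %) and between mice (vertical, %), with a point for each cell cycle gene and a cross for the median of all genes tested. Most mitotic and S phase points lie above the dotted line of equal shares and most G1 points below it, with *Aurka* far to the right.

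Mouse 2 also had the shallowest library of each group, at 14580533 counts untreated, 18288911 at 1 h and 18446470 at 4 h. The other mice held 17823525 to 22580692, 19712740 to 20549801 and 18506596 to 24153284. All 10 macrophage markers were tested, and their summed normalized counts ran from 769600 to 802700 untreated, 698700 to 817600 at 1 h and 663800 to 750100 at 4 h, with mouse 2 at 797800, 817600 and 750100. Single markers moved both ways, with 1 higher and 1 lower at 1 h and 3 higher and 4 lower at 4 h (20.0% and 70.0% called, against 20.1% and 40.0% of all genes), from -1.51 for *Mertk* to 0.72 for *Fcgr1* at 4 h. With the block 3 and 8 of the 10 were called (30.0% and 80.0%, against 27.0% and 47.4%). The 10 markers of neutrophils and their precursors (6 tested) summed to 601 to 1224, 634 to 1126 and 601 to 1027 in the 3 groups, and 6 progenitor markers (3 tested) to 74.3 to 83.1, 72.6 to 101.8 and 88.0 to 125.3. Among the progenitor markers *Cd34* was at 0 to 12.9 normalized counts untreated, 3.38 to 8.22 at 1 h and 12.0 to 22.6 at 4 h. It passed the filter on low counts through its 4 h libraries, where it was highest, so its test is not given. Between 1 h and 4 h *Kit* fell by 1.59 on the log2 scale (adjusted p = 0.0464) and *Meis1* rose by 0.63 (adjusted p = 0.0193). *Gata2*, too low to be tested, was at 0 to 1.73 untreated, 9.25 to 22.5 at 1 h and 0 to 2.34 at 4 h. *Mycn* was at 0 in all untreated libraries. Of 6 lymphoid and 6 erythroid and mast cell markers none was tested, with sums up to 6.26 and 6.16, and 3 of the latter had no count. The 4 dendritic markers (1 tested) summed to at most 33.4. The part of depth and of other cells in the difference between mice was not tested.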

How the data were processed

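RNA of 12 libraries (4 mice, each untreated and after 1 h and 4 h of fenoterol) was sequenced as single 50-base reads from TruSeq stranded mRNA libraries on 1 lane. The authors aligned the reads to GRCm38 with TopHat 2.0.11, counted genes with HTSeq 0.8.0 and deposited raw counts per gene, with no normalization. The annotation release and the strand setting are not given in the sources used here. Of 53379 genes, 53274 matched GENCODE M21, and unmatched ones held 0.0046% of counts.

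Counts were tested with edgeR 4.0.16 in R 4.3.3 (TMM, filterByExpr on the 3 groups, glmQLFit and glmQLFTest, a mean per group). P-values were adjusted by Benjamini-Hochberg over all 12386 genes of a comparison, two-sided, with a threshold of 0.05. The biological coefficient of variation was 0.112. Normalized counts are scaled to the mean library size, RPKM use merged exon lengths, and sums of squares use log2 of the normalized count plus 1. The study's own analysis used vsn and limma. The members and lists were chosen with earlier results of these data known, and all 43 members are named. In each list of other pathway genes, up to 3 rises and 3 falls past the threshold were named by size, among genes whose normalized counts averaged 50 or more. Genes named for their overlap with a member were chosen after their values were seen.

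The titles and the design text tie equal numbers to 1 mouse. Deviations of edgeR log2 CPM (prior count of 2) from the group means correlated by 0.29 to 0.561 (median 0.388, 12 pairs) between libraries of 1 mouse. Otherwise the correlations ran from -0.304 to 0.0912 (median -0.128, 36 pairs). The fit with the mouse as a block is therefore given where it changes the call of a member. Alternatives were DESeq2 1.42.0, limma-voom (limma 3.58.1), RLE or library size scaling, other filters, only 2 groups, leaving out each library and, chosen after seeing the data, leaving out each mouse and the block with library size scaling. On simulated counts for the 1 h comparison (12248 genes), the test recovered 30 of 66 genes changed by 0.5, 52 of 67 by 1 and 64 of 66 by 2 on the log2 scale, with 10 false calls. Promoters are RefSeq windows of GRCm38.p6, which held 35 of the 43 members and not *Ccnd1*, *Ccnd2*, *Ccne2*, *Rb1*, *Mcm4*, *Gins2*, *Ccna2* and *Aurkb*.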

Additional observations from a re-analysis of the deposited data

Results flagged for a closer look

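In 3 of the 129 groups of 4 libraries tested over the 43 genes, 1 library stood apart from the others, where chance flags about 1 group in 20 (6.45 of 129). All 3 were libraries of mouse 2. Untreated mouse 2 had 895 normalized counts of *Ccnd3* against 807 to 813 in the other mice, a gap of 0.926 of the range of the group. At 4 h mouse 2 had 266 counts of *Mcm2* against 376 to 385, a gap of 0.919 of the range. At 1 h it had 160 counts of *Plk1* against 285 to 307, a gap of 0.852 of the range.

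For 14 genes the effect at 4 h differed from that at 1 h by the test of the difference itself, which is the comparison of 4 h with 1 h since both share the untreated libraries. The log2 difference was -1.60 for *Ccnd1*, -2.37 for *Cdk6*, -0.44 for *Cdk4*, -0.41 for *E2f1*, -0.47 for *Rb1*, 0.51 for *E2f2* and 0.51 for *Rbl1*. It was -0.52 for *Mcm2*, -0.53 for *Mcm3*, -0.76 for *Mcm6* and -0.77 for *Pcna*. It was -0.60 for *Aurka*, 0.73 for *Plk1* and 0.65 for *Cdc20*.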

How the results depend on the processing

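No member that was called reversed its direction in any of the 25 alternatives to each comparison. Of 4, 13 and 14 members called at 1 h, at 4 h and between them, the counts moved to 11, 21 and 23 with the mouse as a replicate block, and to 13, 22 and 29 with the block and library size scaling together (30.2%, 51.2% and 67.4%, against 31.1%, 48.0% and 51.2% of all genes). At an adjusted p under 0.01 they were 1, 8 and 9. Leaving out 1 library gave 3 to 5, 11 to 14 and 10 to 15. Leaving out all libraries of mouse 1 or mouse 4 left 1 and 2 calls at 1 h, beside 1740 and 1991 over all genes. Over all genes, 2493, 4958 and 4773 were called, and without 1 library 2100 to 2482, 4463 to 4976 and 4209 to 4735. At 1 h, 3848 genes were called with the block and library size scaling and 1580 at an adjusted p under 0.01. The block took away no member's call, and the members it added are named in the text. Scaling by library size alone moved the split of all calls at 1 h from 1242 higher and 1251 lower to 949 and 1969, and between 4 h and 1 h from 2320 and 2453 to 3503 and 1830. At 4 h it gave 2669 and 2332. The SE of a member's 4 h change ran up to 0.427 (*Ccne2*), and up to 0.254 with the block, which limits what could be detected. The cause of calls lost without a library was not tested.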
